A study of Rattus norvegicus with 2 samples.

Results

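Fibronectin and the matricellular genes of activated fibroblasts were examined in RNA-seq libraries of neonatal rat ventricular cultures. The set was a named list of 10 genes, Fn1, Sparc, Postn, Tnc, Thbs1, Thbs2, Ctgf, Cyr61, Nov and Ccdc80, matched by gene symbol in a table of 16846 symbols. A row was found for 8 of them; Tnc and Thbs1 matched no row by symbol, synonym or RefSeq accession and were not analysed here. All 8 lay far above the level of 1 read per 1000000 used as a floor, so none was lost to a filter. The series holds 2 libraries, 1 per group, of strand-specific poly(A) RNA from ventricular cells of Rattus norvegicus taken at postnatal day 0 and plated as cardiomyocytes after a pre-plating step meant to remove attaching cells. The anti-miR library came from cells transduced for 7 days with adeno-associated virus of serotype 2/9 (AAV2/9) carrying hairpins against miR-99/100 and let-7. The control received an empty AAV according to one label and was mock-transduced according to another, so whether both groups carried viral particles is not settled by the labels. The labels name no strain and no number of animals, and the protocol claims a high cardiomyocyte purity for cultures made this way. With 1 library per group, no difference below has a replicate check and no test between the conditions was possible; intervals cover counting error only.

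Fibronectin is a large secreted glycoprotein that cells assemble into fibrils through integrins, and it serves as a scaffold for collagen deposition. Matricellular proteins are secreted into the same matrix but act mainly by modulating how cells bind it and how growth factors reach their receptors. In the heart they are low in resting adult muscle and are made by fibroblasts during development, after injury and in culture. The comparison asks what inhibition of 2 miRNA families does to the transcriptome of these cultures. The mature miRNAs below are examples of the inhibited families, shown because the seed (bases 2 to 8, in capitals) is what the inhibitors are meant to occupy. Sequences are from RefSeq (GRCr8 tables).
rno-let-7a-5p: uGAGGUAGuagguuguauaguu
rno-let-7c-5p: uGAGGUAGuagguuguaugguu
rno-miR-100-5p: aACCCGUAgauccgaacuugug
rno-miR-99b-5p: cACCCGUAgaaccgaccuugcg
The seed of let-7a and let-7c was shared by 9 mature rat miRNAs of the let-7 and miR-98 group in that table, and that of miR-100 by miR-99b. Transcript sequences of the members were not used here, so no match of these seeds to a member is reported.

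All 8 genes were abundant in both libraries, and none differed between them by 1.5-fold. Together they took 965766 of 16031780 control reads on genes, 6.02% (exact binomial 95% interval 6.01 to 6.04). In the anti-miR library they took 882157 of 14815846, 5.95% (5.94 to 5.97). The ratio of these shares, anti-miR over control, was 0.988 with a counting interval of 0.986 to 0.991. That ratio rested on Fn1, the largest member: without it the other 7 genes held 3.52% and 3.58% of reads, a ratio of 1.02 (1.01 to 1.02). The interval leaves out the choice of scaling. Scaling by median-of-ratios size factors shifted the median log2 ratio of all genes above the floor by −0.024. The ratio without Fn1 was not recomputed under that scaling.

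Before the single genes, the labelled cell type was set against its markers. The 15 fibroblast markers with a row summed to 104893 reads per 1000000 (RPM) in the control against 106581 with the anti-miRs, led by the collagen genes Col1a1 (49138 and 50088 RPM) and Col3a1 (26226 and 26168 RPM). The 18 cardiomyocyte markers summed to 260 and 303 RPM, led by Tnnt2 (147 and 161 RPM) and Actc1 (76.97 and 88.8 RPM), and Myl7 had 0 reads in both libraries, where up to 0.187 and 0.202 RPM could go unseen. The markers of the labelled cell type were thus scarce beside those of fibroblasts in each library. Macrophage and other leukocyte markers summed to 8514 and 9179 RPM over 15 genes, led by Lyz2, whose locus the table also lists as Lyc2, and Cd68, with Cd163 at 0 reads in both. Smooth muscle and pericyte markers came to 3730 and 3611 RPM over 10 genes, led by Pdgfrb and Tagln, and epicardial markers to 146 and 148 RPM over 7 genes, led by Aldh1a2 and Tbx18. Endothelial markers came to 47.5 and 70.3 RPM over 10 genes, led by Flt1 and Tie1, with Emcn and Cldn5 at 0 reads in both. In such bulk samples, fewer cells of a type and less RNA per cell cannot be told apart, and the part of these marker levels in the member values below was not tested.

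Fn1, which encodes fibronectin (NM_019143, build rn4 chromosome 9, 70702181 to 70771155, minus strand), was the member with the most reads. It had 400780 reads or 24999 RPM in the control, against 351871 reads or 23750 RPM with the anti-miRs. That placed it at rank 3 of all genes in each library when transcript length is left aside. The anti-miR value was the lower of the pair, at 0.950 of the control value (counting error alone allows 0.946 to 0.954), or −0.07 on the log2 scale. Among the 1793 genes averaging 100 RPM or more, 68.2% had a larger log2 difference in either direction. Spliced forms of fibronectin that differ in their extra domains were not separable, because the table holds a single transcript for the gene.

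Sparc encodes SPARC or osteonectin, a collagen-binding glycoprotein involved in handling and assembly of fibrillar collagen (NM_012656, chromosome 10, 40809730 to 40831481, minus strand). Its level was 15529 RPM in the control library and 15979 RPM with the anti-miRs, from 248962 and 236745 reads. The ratio was 1.03 (1.02 to 1.03). Postn encodes periostin, a fasciclin-domain protein that binds integrins and is widely used as a mark of activated cardiac fibroblasts (NM_001108550, chromosome 2, 143537099 to 143568341, plus strand). It had 5048 and 5207 RPM, from 80922 and 77149 reads, also with a ratio of 1.03 (1.02 to 1.04). The values of both genes were therefore slightly higher in the anti-miR library, by small amounts for their level: of genes of at least 100 RPM, 82.8% had a larger log2 difference than Sparc and 81.2% a larger one than Postn.

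Thbs2 encodes thrombospondin 2, a trimeric matrix protein that binds CD36, CD47 and matrix metalloproteinases and restrains blood vessel growth (NM_001169138, chromosome 1, 53584406 to 53613652, minus strand). It was the least abundant member, with 8013 reads or 499.8 RPM in the control library, against 8154 reads or 550.4 RPM with the anti-miRs. Its ratio of 1.10 (1.07 to 1.14), a log2 ratio of 0.14, was the highest of the 8. Even so, 42.1% of genes of at least 100 RPM had a larger difference. Ccdc80 encodes a secreted matrix-associated protein of mesenchymal cells (NM_022543, chromosome 11, 57222551 to 57257162, minus strand). It had 6618 and 6941 RPM from 106098 and 102834 reads, with a ratio of 1.05 (1.04 to 1.06).

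**Figure D1:**
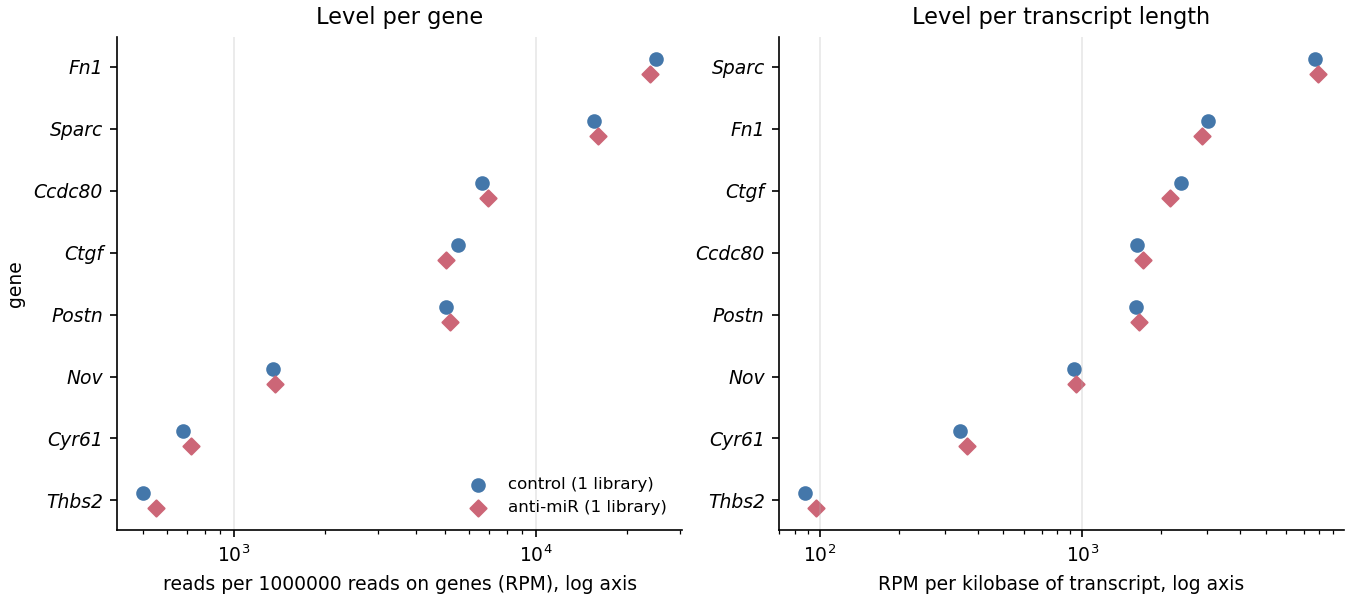
Levels of the 8 genes in the control library (circles) and the anti-miR library (diamonds), as reads per 1000000 (left) and per kilobase of transcript (right), both on log axes. The 2 symbols of each gene lie close together, and the genes spread from Thbs2 at 499.8 to Fn1 at 24999 RPM in the control, while per length Sparc is highest.

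The CCN genes Ctgf, Cyr61 and Nov encode small secreted proteins built from the same modules, which bind integrins and heparan sulphate; Ctgf and Cyr61 are textbook targets of the YAP and TAZ coactivators with TEAD factors, and of TGF-beta or serum signals. Ctgf (now Ccn2; NM_022266, chromosome 1, 21327100 to 21330215, minus strand) had 88550 reads or 5523 RPM in the control library, against 74458 reads or 5026 RPM with the anti-miRs. Cyr61 (now Ccn1; NM_031327, chromosome 2, 243824303 to 243827262, minus strand) had 10843 reads or 676 RPM and 10656 reads or 719 RPM. Ctgf was thus lower in the anti-miR library and Cyr61 higher. Nov (now Ccn3; NM_030868, chromosome 7, 91162676 to 91169696, plus strand) had 21598 reads or 1347 RPM and 20290 reads or 1369 RPM. Its values were within counting error of each other.

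Expressed as ratios, Ctgf stood at 0.910 (0.901 to 0.919), the lowest of the 8 genes, with a log2 ratio of −0.14. Cyr61 stood at 1.06 (1.04 to 1.09) and Nov at 1.02 (0.997 to 1.04). Among genes of at least 100 RPM, 43.2% had a larger log2 difference than Ctgf and 61.6% a larger one than Cyr61. The number of Ctgf reads per Cyr61 read was 8.17 in the control against 6.99 with the anti-miRs, a ratio of 0.856 (exact conditional interval 0.832 to 0.880). Ctgf was therefore lower against Cyr61 by more than counting error. Per Nov read, Ctgf had 4.10 and 3.67 reads, a ratio of 0.895 (0.876 to 0.915). The Cyr61 to Nov ratio moved by 1.05 (1.01 to 1.08). These contrasts within the family do not depend on how the libraries are scaled, but with 1 library per group the spread between cultures is unknown.

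The promoters of Ctgf and Cyr61 are shown because these relatives share a factor and their ratios lay on opposite sides of 1. Neither difference was large for its level. The promoter of Sparc is shown for comparison, as the most abundant member per length. Each runs from 250 bases before to 50 bases after the annotated start in RefSeq GRCr8, read 5′ to 3′ on the gene's strand. Capitals mark CATTCC or its reverse complement GGAATG, the MCAT element that TEAD factors bind, searched on both strands, and TATAAA, the TATA box, searched on the gene's strand.
Ctgf, chr1:22624565-22624864, minus strand: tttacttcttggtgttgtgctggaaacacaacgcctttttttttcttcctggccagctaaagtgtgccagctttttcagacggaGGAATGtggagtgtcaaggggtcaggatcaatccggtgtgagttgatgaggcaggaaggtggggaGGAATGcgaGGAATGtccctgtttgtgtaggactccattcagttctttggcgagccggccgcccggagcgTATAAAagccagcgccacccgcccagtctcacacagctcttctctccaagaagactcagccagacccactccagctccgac
Cyr61, chr2:237225640-237225939, minus strand: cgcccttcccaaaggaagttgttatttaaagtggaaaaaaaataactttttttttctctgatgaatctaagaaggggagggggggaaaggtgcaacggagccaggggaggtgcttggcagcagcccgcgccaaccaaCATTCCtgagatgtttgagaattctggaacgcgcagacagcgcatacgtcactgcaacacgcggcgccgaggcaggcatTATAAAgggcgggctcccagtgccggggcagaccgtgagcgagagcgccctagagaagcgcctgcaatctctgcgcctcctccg
Sparc, chr10:40038767-40039066, minus strand: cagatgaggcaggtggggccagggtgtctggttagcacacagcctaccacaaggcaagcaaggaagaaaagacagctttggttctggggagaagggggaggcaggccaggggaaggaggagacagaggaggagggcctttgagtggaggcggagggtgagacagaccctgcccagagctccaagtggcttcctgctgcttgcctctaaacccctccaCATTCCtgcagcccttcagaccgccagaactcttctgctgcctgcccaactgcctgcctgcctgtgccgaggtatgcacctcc
The Ctgf window held 3 MCAT matches, starting 166, 101 and 92 bases before the start, and a TATAAA starting 31 bases before it. The Cyr61 window held 1 MCAT match at 113 bases before the start, and a TATAAA at 34. Sparc had 1 MCAT match, at 33 bases, and no TATAAA.

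Of 33469 rat promoter windows of this length, 14.2% held at least 1 MCAT match, 0.0956% held 3 or more, and 8.80% held TATAAA. Of the 8 members with a row, 5 had a promoter entry; Postn held TATAAA at 44 bases before its start and no MCAT match, and Ccdc80 neither. The AP-1 element TGANTCA, present in 7.33% of windows, and the CArG box of serum response factor, in 1.64%, were in none of the 5. For SMAD factors only the letters CAGACA or their reverse complement were searched, which were in 21.1% of windows. They occurred once in Cyr61, at 80 bases before the start, and once in Sparc, at 226. The printed Ctgf window holds CAGACG and CAGACC, which differ in the last base only and were not counted. CAGACC is also in the Cyr61 and Sparc windows. Other forms of a SMAD element were not searched, so its absence from Ctgf is not shown. No match overlapped another. A match is a description of these letters only.

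Levels of different genes were compared per kilobase of transcript, as RPM per kilobase (RPKM). On this scale Sparc led the set with 7699 RPKM in the control against 7922 with the anti-miRs, rank 4 of all genes in each. Fn1, whose transcript of 8283 bases is the longest of the set, followed with 3018 and 2867 RPKM, at ranks 13 and 14. Ctgf came next with 2373 and 2159 RPKM, at ranks 15 and 18. These 3 were the only members among the 20 genes with the highest mean RPKM, which also held Col1a1 and Spp1, the gene of osteopontin.

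Ccdc80 and Postn formed the next step, with 1619 and 1601 RPKM in the control, where their counting intervals (1610 to 1629 and 1590 to 1612) overlapped. In the anti-miR library they had 1698 and 1651 RPKM, and the intervals (1688 to 1709 and 1640 to 1663) did not overlap. Nov stood at 933 and 948 RPKM and Cyr61 at 342 and 364. Thbs2 was lowest, with 87.6 and 96.5 RPKM, so Sparc exceeded it 87.9-fold in the control. The order of the 8 genes per length was the same in both libraries, and every neighbouring pair other than Ccdc80 and Postn in the control was separated by more than its counting intervals.

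Within the set, fibronectin made up slightly less of the reads with the anti-miRs. Fn1 and Sparc together made up 67.3% of the members' reads in the control library and 66.7% with the anti-miRs. Fn1 went from 41.5% to 39.9% and Ctgf from 9.17% to 8.44%. The share of Sparc was 25.8% and 26.8%, and that of Ccdc80 10.99% and 11.7%. Reads of Fn1 per read of Sparc were 1.61 and 1.49, a ratio of 0.923 (0.917 to 0.930), and the Fn1 ratio to Postn and to Ccdc80 changed by 0.921 (0.911 to 0.931) and 0.906 (0.897 to 0.915). Fn1 was therefore lower against each of these 3 genes by more than counting error.

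**Figure D2:**
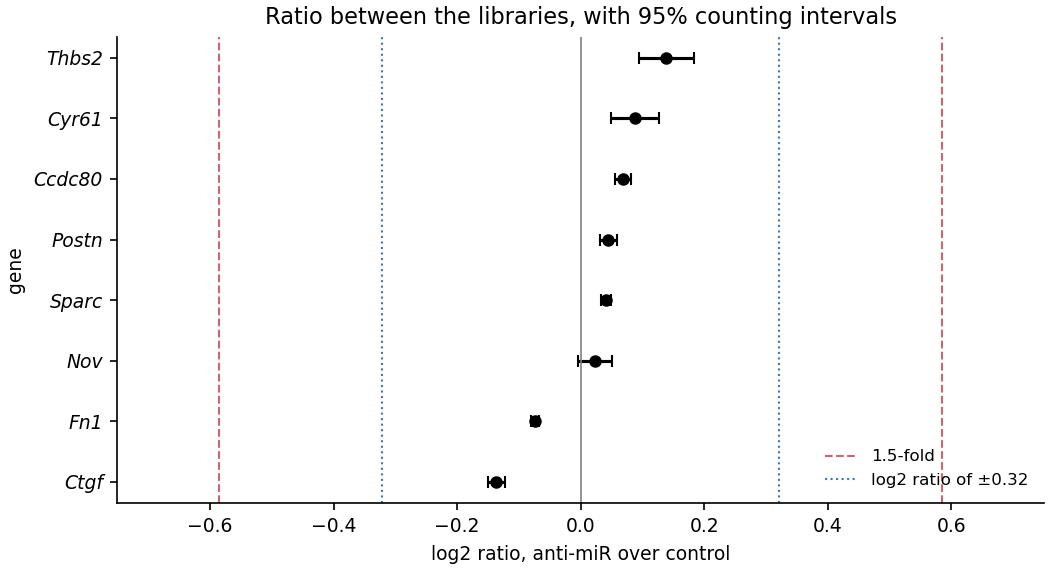
Log2 ratio of the anti-miR over the control library for each gene (points) with its 95% counting interval (bars); dashed lines mark 1.5-fold and dotted lines a log2 ratio of 0.32 in either direction. All 8 genes lie inside the dotted lines, from Ctgf at −0.14 to Thbs2 at 0.14, and the interval of Nov includes 0.

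Across the set, 0 of 8 genes were at least 1.5-fold higher or lower. Of the 10365 genes averaging 1 RPM or more, 19.4% were past that fold, but fold differences shrank with level, and of the 1793 genes of at least 100 RPM 0.948% were. At the lower limit of 0.32 on the log2 scale, 0 of the 8 genes and 9.43% of genes of at least 100 RPM were apart. A count of 0 among 8 genes is near the background share at their level. With the anti-miRs 6 were higher and 2, Fn1 and Ctgf, lower, and with scaling by median-of-ratios size factors Nov joined these 2. The median log2 ratio of the 8 was 0.04, beside 0.01 over all genes of at least 100 RPM and 0.03 over all genes of at least 1 RPM.

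**Figure D3:**
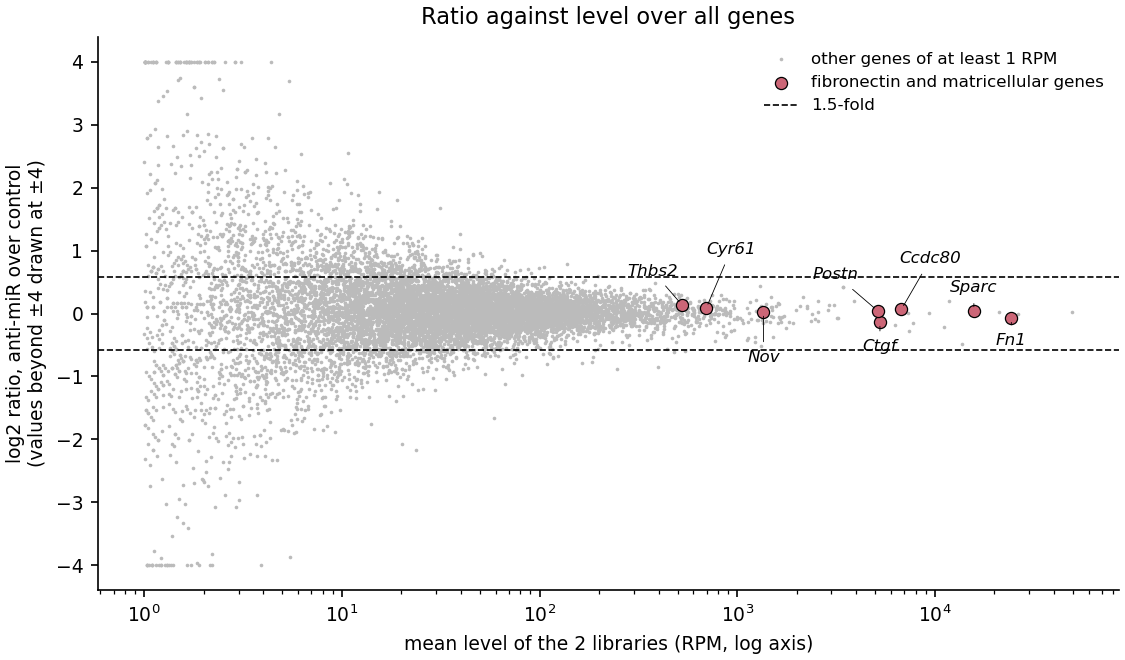
Log2 ratio of the anti-miR over the control library against the mean level in RPM (log axis) for genes of at least 1 RPM (grey) and the 8 genes of the set (red, named); dashed lines mark 1.5-fold and values beyond ±4 are drawn at ±4. The set lies at the abundant end, where 0.948% of genes of at least 100 RPM are past 1.5-fold.

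On reads rather than folds, 7 of the 8 genes differed between the libraries by an exact binomial test with Benjamini-Hochberg adjustment at 0.05 over all 10365 genes, Nov being the exception. That test compares the 2 libraries and not the conditions, and it called 6018 genes, 58.1%, and 65.2% of genes of at least 100 RPM. At the depth of these members, from 8013 reads upward, differences of a few percent pass it.

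Other matricellular and adhesive glycoproteins were more scattered. Of 21 listed, 18 had a row and 12 lay above the floor of 1 RPM; 1 was at least 1.5-fold higher (background 10.8%) and 0 were lower (8.56%), with a median log2 ratio of −0.09. Spp1, of osteopontin, was the most abundant with 1346 RPM in the control against 1392 with the anti-miRs. The CCN relative Wisp1 was lowest, with 27.6 and 21.1 RPM and a ratio of 0.762 (0.657 to 0.883). Smoc2, a calcium-binding relative of SPARC, was highest at 2.45-fold (1.47 to 4.19), resting on 23 and 52 reads. Below the floor, the SPARC relative Sparcl1 had 0 and 18 reads and the thrombospondin Thbs4 16 and 0, while Wisp3, Ibsp and Vtn had 0 in both libraries. These 5 and Smoc2 were thus low beside the members, and Sparcl1 and Thbs4 were chosen after their values were seen, as were Wisp3, Ibsp and Vtn.

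Cell-surface receptors of these proteins were expressed in both libraries. All 11 with a row, of 15 listed, lay above the floor, with a median log2 ratio of 0.04. At 1.5-fold, 0 were apart in either direction, beside 19.4% of all genes above the floor and 0.948% of genes of at least 100 RPM. At the lower limit of 0.32 on the log2 scale 1 was higher and 2 were lower. The shares apart either way were 39.3% of all genes above the floor and 9.43% of genes of at least 100 RPM. The list holds genes on both sides of 100 RPM, so neither share matches its level. Lrp1, an endocytic receptor that clears thrombospondins and CCN2, was the most abundant, with 2765 and 3050 RPM. Itga5 and Itgb1, the subunits of the classical fibronectin receptor, had 164 and 168 RPM and 2200 and 2333 RPM; they were chosen for that role after their values were seen. Itga4, of a leukocyte and mesenchymal fibronectin receptor, was highest, with 35.8 and 50.96 RPM and a ratio of 1.42 (1.28 to 1.59). Itgb8 was lowest, with 90 and 65 reads and a ratio of 0.781 whose interval of 0.559 to 1.09 includes 1.

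Of 14 listed TGF-beta ligands, receptors and SMADs, 13 had a row and lay above the floor. With the anti-miRs 10 were lower and 3 higher by any amount, beside 4843 of 10365 lower over all genes above the floor, and the median log2 ratio was −0.18. None was 1.5-fold apart, a count of 0 of 13 beside 19.4% of all genes above the floor. Of genes of at least 100 RPM, a level that many of this list reach, only 0.948% were past that fold. Past the lower limit of 0.32 on the log2 scale were 2 receptor genes, Tgfbr1 and Tgfbr3, both lower. Either way, 39.3% of all genes above the floor and 9.43% of genes of at least 100 RPM passed that limit. Tgfbr1 had 1292 and 983 RPM, with a ratio of 0.761 (0.745 to 0.777). It was chosen after its values were seen. Ltbp2, a latent TGF-beta binding protein relative, had 2450 and 2257 RPM. The receptor gene Tgfbr3 was lowest, with 13.1 and 8.91 RPM and a ratio of 0.680 (0.543 to 0.850), and Tgfbr2 highest, with 171 and 197 RPM and a ratio of 1.15 (1.10 to 1.22).

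Regulators of YAP, TEAD and serum response factor went both ways, 6 up and 6 down over 12 genes with a row of 15 listed, with a median log2 ratio of −0.02. Yap1, the coactivator itself, was highest, with 354 and 494 reads, 22.1 and 33.3 RPM, and a ratio of 1.51 (1.31 to 1.74), the only gene of the list past 1.5-fold (background 10.8% higher). That call was lost with a pseudocount of 1 RPM and under both other planned scalings. The Hippo kinase gene Stk4 was lowest at 0.708 (0.645 to 0.776), with 73.5 and 52.0 RPM. Lats2, the most abundant regulator by the mean of the 2 libraries though not in the control alone, had 102 and 104 RPM.

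Further genes that respond to YAP, serum response factor or TGF-beta, 16 with a row of 18 listed, had a median log2 ratio of −0.15, with 10 lower and 6 higher by any amount, beside 4843 of 10365 lower over all genes above the floor. Of genes of at least 100 RPM, a level that many of this list reach, 0.948% were past 1.5-fold either way. At 1.5-fold, 0 were higher (background 10.8%) and 1 was lower (background 8.56%). That gene was Crim1, a transmembrane BMP-binding protein, with 105 and 65.4 RPM and a ratio of 0.621 (0.573 to 0.673). Edn1, of endothelin, was highest at 1.27 (1.14 to 1.41), with 38.9 and 49.3 RPM. Ltbp2, also on the TGF-beta list, was the most abundant. Ctgf lay on the side of this list's median and Cyr61 on the other.

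**Figure D4:**
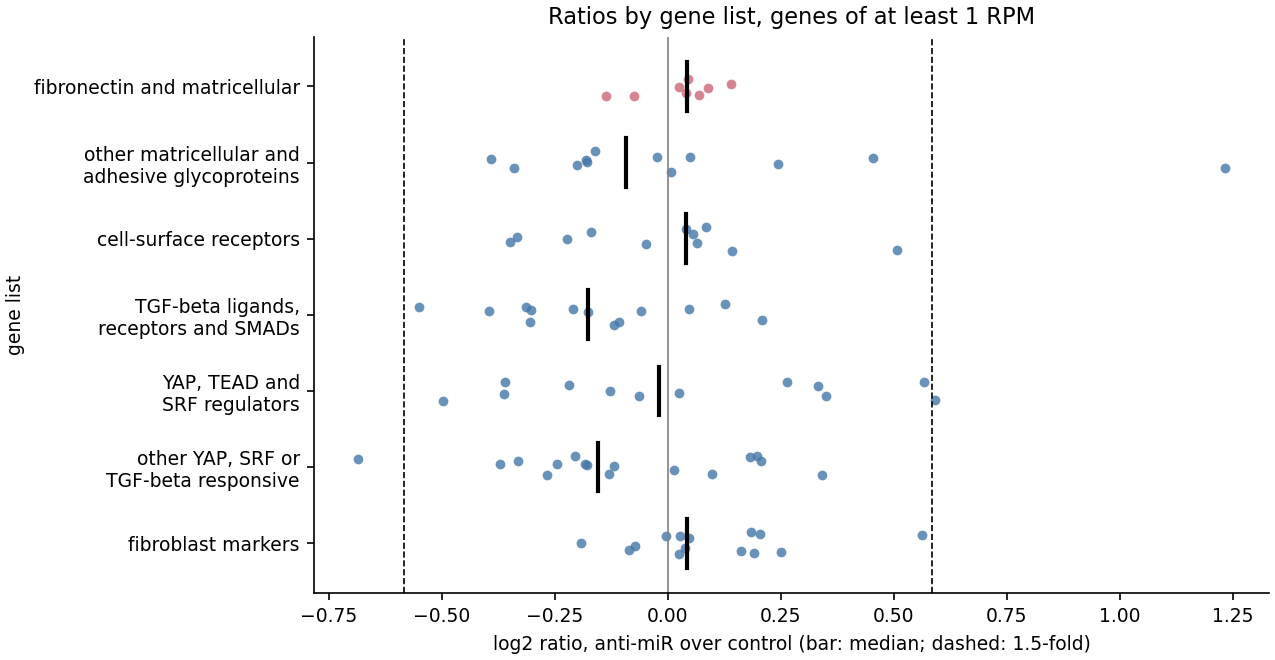
Log2 ratios of the anti-miR over the control library for the 8 genes (red) and for genes of at least 1 RPM on the related lists and among fibroblast markers (blue), with the median of each list (bar) and 1.5-fold (dashed); a gene on more than 1 list is drawn in each. The 8 genes spread less than the other lists, which include many less abundant genes.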

How the data were processed

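Each library has 1 column of deposited read signal. Per the file headers, the authors ran HOMER on exons of RefSeq genes (rn4), counting antisense to the read and condensing each gene to 1 transcript. The submitters' processing notes also list CASAVA 1.8.2 and STAR 2.2.0c, with no role. Column totals of 15423813 and 15423812 show a later scaling; its method is not given. After 1 repeated symbol was dropped, 16846 of 16847 rows were left. Values are whole multiples of 0.962 (control) and 1.04 (anti-miR), the worth of 1 read, within 0.005 units for 100% of values up to 400 reads, so read numbers were recovered. Lengths are those of the deposited table.

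RPM, RPKM and the log2 ratio of RPM with a pseudocount of 0.1 were computed in Python 3.11.15 with NumPy 2.4.6 and SciPy 1.17.1. Intervals are exact (Clopper-Pearson or Poisson, 95%) and cover counting error only, as reads lacking molecular identifiers can be copies of one molecule. A count of 0 allows up to 3 reads. The scripts were tested on simulated data. Named genes are all members, the highest, lowest and most abundant gene of each pathway list, and the 2 most abundant genes and those at 0 of each marker list; other genes described with values are marked as chosen later. Members, lists, folds and rules were chosen with earlier results of these data known. With 2 libraries, no likeness between gene patterns can be measured.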

Additional observations from a re-analysis of the deposited data

How the results depend on the processing

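No paired analysis was possible because each group holds 1 library, and no library could be left out. Over 32 recomputed log2 ratios of the 8 genes (another pseudocount, 2 planned scalings, and scaling by fibroblast markers, which was chosen after seeing the data) the values stayed between −0.16 and 0.14, and 0 genes reached 0.32 in either direction. Fn1 and Ctgf were below 0 and Sparc, Postn, Thbs2, Cyr61 and Ccdc80 above 0 in each, while Nov changed sign with size factors. The log2 ratio of the summed member reads was −0.0168, −0.0411 with size factors, −0.0259 without the 50 most abundant genes in the total and −0.0399 with scaling by fibroblast markers.

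Without length scaling 4 of the 8 members changed place in the control. Fn1 stood at place 1 instead of 2 and Sparc at 2 instead of 1. Ccdc80 stood at place 3 instead of 4 and Ctgf at 4 instead of 3. With the 50 most abundant other genes left out of the total, the members' share was 8.11% for the control and 7.98% with the anti-miRs. The 5 related lists held 12, 11, 13, 12 and 16 genes above the floor, and a gene on more than 1 list was counted once. Of these genes, 2 were at least 1.5-fold higher and 1 lower, beside 10.8% and 8.56% of all genes above the floor. The count of higher genes was 1 with a pseudocount of 1 RPM, with size factors, without the 50 most abundant genes in the total, with a floor of 10 RPM and at 2-fold, 3 with no floor and 8 past a log2 ratio of 0.32. The count of lower genes was 3 with no floor, 0 at 2-fold and 12 past a log2 ratio of −0.32. Past 0.32 in either direction were 39.3% of all genes above the floor and 9.43% of genes of at least 100 RPM. The lists hold genes on both sides of 100 RPM, so neither share matches their level. The cause of each shift other than the fold or floor itself was not tested. Depth does not limit the members, each with 8013 reads or more; it limits low genes such as Smoc2.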
